A study of Mus musculus with 3 samples.

Results

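The 10 genes described here, Auts2, Castor2, Limk1, Eln, Mettl27, Hip1, Por, Cux1, Myl10 and Col26a1, lie between 130 and 140 Mb of mouse chromosome 5 (build GRCm38). They were chosen by the measured ratio of EBF1E271A over EBF1wt, which was known to be low in this interval. A deposited region belongs to a gene here if that gene has the protein-coding gene body nearest to the region's centre, within 100 kb. By this rule the 10 genes hold 51 of the 4116 deposited regions, which merge into 27 of 2121 loci. Another 23 loci of the interval have other nearest genes. Since the ratio chose the genes, the ratios below describe them and carry no test.

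The libraries come from C57BL/6 pro-B cells that lack their own Ebf1 (Ebf1-/-), grown from c-kit+ progenitors of E16.5 fetal liver. Every culture carried the retroviruses pMYs-rtTA-Advanced-tdTomato and pRetroX-Tight-Pur-FLAG-NICD1, so that 1 µg/ml doxycycline, given for 6 hours, induced NICD1, the intracellular part of the Notch1 receptor. EBF1 was supplied by a further retrovirus, as EBF1wt (pMys-StrepFLAG-EBF1wt_IRES_GFP) or as the substituted protein EBF1E271A (pMys-StrepFLAG-EBF1E271A_IRES_GFP), so its level is set by the vector and not by the Ebf1 gene. The series holds 3 libraries, 1 per group: a chromatin immunoprecipitation (ChIP) of EBF1wt, a ChIP of EBF1E271A and an input from EBF1wt cells, of which no value per region was used here. Human BJAB cells were mixed in at 1 per 10 mouse cells, and both ChIPs are given as spike-in scaled counts. All regions are 300 bp wide, so values of different loci can be set side by side. Replicates are lacking, so no difference could be checked against the spread between cultures. Ratios of single loci and genes are followed by their 95% interval (exact binomial, Clopper-Pearson), which covers counting error alone and rests on unscaled counts inferred from the values.

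EBF1 is the transcription factor that starts and keeps the B cell programme. It binds DNA as a dimer that reads a palindromic site. The genes here have no single shared function. Auts2 and Cux1 encode nuclear regulators, and Hip1, Limk1 and Myl10 encode proteins of membrane traffic and of the actin and myosin cytoskeleton. Eln and Col26a1 encode matrix proteins, Castor2 and Por encode proteins of nutrient sensing and metabolism, and Mettl27 encodes a methyltransferase-like protein. Limk1, Eln and Mettl27 lie in the mouse counterpart of the segment that is deleted in Williams-Beuren syndrome. Castor2 is counted here with the segment and its borders. Auts2 lies outside it: the gene ends at 132543220, while Limk1 starts at 134656039.

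Sequence could be read at 1 of the 27 loci, because RefSeq promoter windows (250 bases before to 50 bases after an annotated start, GRCm38.p6) were the only genomic sequence used. That locus lies inside Col26a1 and overlaps the window of the noncoding RNA gene Gm20485 over 205 bases (chr5:136870420-136870624, minus strand). They are shown because they carry the EBF1 site core, with each match to CCCNNGGG in capitals.

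Col26a1 locus 4: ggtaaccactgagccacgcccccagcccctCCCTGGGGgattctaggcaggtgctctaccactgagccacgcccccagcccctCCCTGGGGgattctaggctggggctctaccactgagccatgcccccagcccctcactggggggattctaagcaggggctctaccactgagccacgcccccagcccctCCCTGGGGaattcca

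The stretch holds 3 matches, which start at bases 31, 84 and 191, counted from 1 at its 5′ end. The last of them is also a full TCCCNNGGGA palindrome. The first 2 matches lie 53 bases apart, and the stretch repeats itself at this spacing: shifted by 53 bases it was identical to itself at 70.4% of the positions. The best shift of 10 to 100 bases gave a median of 35.8% over the first 205 bases of the 32851 promoter windows, and 0.143% of the windows (47) were as repetitive. By the same measure, 0.250% of them (82) held 3 or more matches and 9.66% at least 1. Both motifs read the same on either strand, and CCCNNGGG is contained in every TCCCNNGGGA. Among the 154 loci of the series that overlap a promoter window by at least 100 bases, 83 (53.9%) held CCCNNGGG in the overlap, and 6 held 3 or more. The sources used here do not say how reads from repeated sequence were placed, and its part in the values was not tested.

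Promoter windows of the member genes were read for the same motifs. Windows were found for 7 of the 10 genes (Castor2, Limk1, Mettl27, Hip1, Por, Cux1 and Myl10), 11 in all. CCCNNGGG was present in 7 of the 11 windows, from 5 genes, against 15.6% of the 21263 windows of protein-coding genes and 13.7% of all 32851. The member windows had a median GC content of 64%, against 56.3% for protein-coding windows, and the part of base composition in this share was not tested. The full palindrome TCCCNNGGGA was found in 1 member window, that of Castor2, and in 0.904% of all windows. Stretches of 30 bases around matches that lie before a start site are shown for 4 genes, with the match in capitals, to show each match with its flanks. The first match of each window is given.

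Castor2: ttcctctgtgtCCCTGGGGaaccccgaaat

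Mettl27: cccctccacttCCCTCGGGtctgcctggag

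Hip1: agcgccggatcCCCGCGGGtagggaggggc

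Myl10, first window: caggaccccagCCCATGGGatgatgccacc

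Myl10, second window: ggccctggtgaCCCTGGGGaccctgggagt

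These stretches span chr5:134099505-134099534 (plus strand), chr5:134932365-134932394 (plus), chr5:135545118-135545147 (minus), chr5:136693029-136693058 (plus) and chr5:136693429-136693458 (plus). No locus of the 27 overlaps a promoter window of its own gene. Of the 18 loci whose gene has a window, 1 was within 1 kb of a start of that gene, and the others were up to 318 kb away.

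Scaled counts at the 27 loci ran from 98.0 to 626 for EBF1wt and from 37.3 to 498 for EBF1E271A. The medians were 174 and 88.6. Of the 27 loci, 26 had a lower value for EBF1E271A, where the background over all loci is 67.2%, and the ratios ran from 0.198 to 1.18 with a median log2 ratio of -0.95. Over all 2121 loci the median log2 ratio was -0.16. The direction rests in part on the spike-in scale: equal sums of both libraries shift every log2 ratio by 0.22, and 25 of the 27 loci then had the lower value for EBF1E271A, with locus 4 of Myl10 the one that turned. At least 2-fold lower values were found at 13 of the 27 loci, where the background over all loci is 4.48%, and at least 1.5-fold lower values at 18, where it is 14.1%. None was at least 2-fold higher, against 0.849% of all loci. These shares follow from how the genes were chosen.

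**Figure D1:**
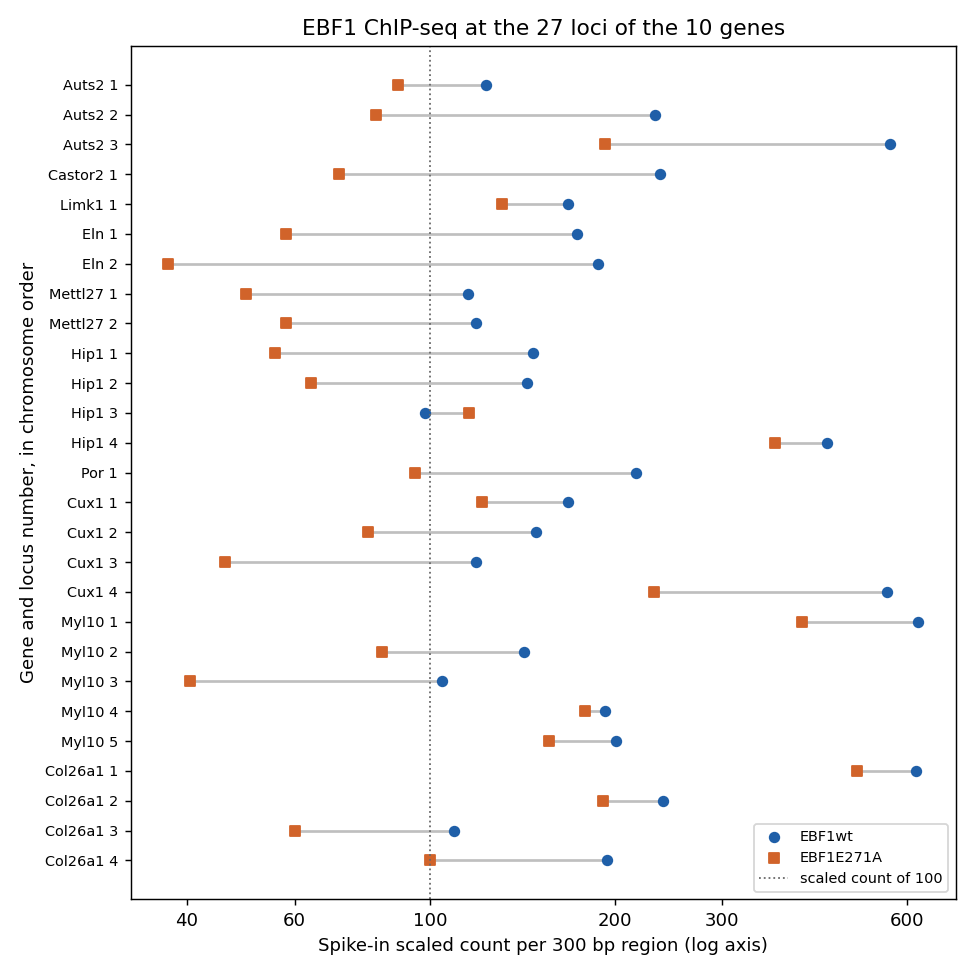
Spike-in scaled counts (log axis) of EBF1wt (circles) and EBF1E271A (squares) at each of the 27 loci, in chromosome order, with a dotted line at 100. The square lies left of the circle at 26 loci, and the order is turned around at locus 3 of Hip1 only.

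How strong a locus is sets how well its ratio is known, and it also touches how the list of regions was made. Every deposited region exceeds 100 in at least 1 library. Of the member loci, 16 exceeded 100 in EBF1wt alone, 1 in EBF1E271A alone and 10 in both. Of all 2121 loci, 491 (23.1%) exceeded 100 in EBF1wt alone, 180 in EBF1E271A alone and 1450 in both. A locus above 100 in EBF1wt alone has a ratio below 1 by construction. The 10 loci above 100 in both libraries had a median log2 ratio of -0.36, and 2 of them, in Auts2 and beside Cux1, were at least 2-fold lower. Of the 1427 loci above 100 in both libraries outside the interval, 12 (0.841%) were at least 2-fold lower, and their median was -0.10.

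The nuclear regulators had the strongest low loci. Auts2, which encodes a protein of neural development that works with a Polycomb complex, spans 1106 kb and held 3 loci, all inside the gene. Its locus 3 (chromosome 5, 131853310 to 131853609) had scaled counts of 564 (EBF1wt) and 193 (EBF1E271A), a ratio of 0.342 (0.292 to 0.399). Its locus 2, 205 kb away (131648473 to 131648772), had 232 and 81.6, a ratio of 0.351 (0.275 to 0.448). These ratios were nearly equal although the EBF1wt values were far apart. Locus 1 of Auts2 (131600348 to 131600647), 48.1 kb before locus 2, had 123 and 88.6. Its ratio of 0.718 (0.541 to 0.960) lay above the intervals of the other loci of the gene, so the loci of Auts2 did not share 1 ratio.

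Cux1 encodes a homeodomain transcription factor, and none of its 4 loci lies inside the gene. A group of 3 loci lay upstream, 18.2 to 23.9 kb from the annotated start in the promoter table. The strongest of them (136589722 to 136590021) had values of 558 (EBF1wt) and 232 (EBF1E271A), a ratio of 0.416 (0.358 to 0.483). The locus 4.37 kb nearer to the gene (136585354 to 136585653) had 119 and 46.2, a ratio of 0.389 (0.278 to 0.545). Another 1.32 kb nearer (136584038 to 136584337), the values were 149 and 79.1, a ratio of 0.532 (0.404 to 0.703). The intervals of these 3 neighbours overlap, and differences between them were not tested. The fourth Cux1 locus lay at the other end, 0.334 kb beyond the gene body (136247652 to 136247951), within the noncoding RNA gene Gm30408. There the values were 168 and 121, a ratio of 0.725 (0.569 to 0.927), above the interval of the strongest upstream locus.

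Among the matrix genes, Eln held the lowest ratio of the 27 loci and Col26a1 no locus that was 2-fold lower. Eln encodes tropoelastin, the building block of elastic fibres. Its outside locus, 36.5 kb from the gene body and within the noncoding RNA gene Gm30003 (134783724 to 134784023), had values of 188 (EBF1wt) and 37.3 (EBF1E271A), a ratio of 0.198 (0.143 to 0.273). Inside Eln (134712991 to 134713290) the values were 174 and 58.2, a ratio of 0.335 (0.251 to 0.445). The EBF1wt values of the pair were close to each other, and the difference lay in EBF1E271A. Summed over both loci, Eln had the lowest ratio of the 10 genes, 0.264 (0.213 to 0.325).

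Col26a1 encodes a collagen chain, and all 4 of its loci lie inside the gene. The strongest (136753173 to 136753472) had 621 and 498, a ratio of 0.801 (0.709 to 0.907). Its neighbour 963 bases away (136754136 to 136754435) had 240.3 and 192, a ratio of 0.797 (0.654 to 0.975). At the far end of the gene, locus 3 (136836968 to 136837267) had 109 and 60.1, a ratio of 0.551 (0.400 to 0.762). Locus 4 (136870420 to 136870719), whose repeated sequence with 3 EBF1 site cores is shown above, had 194 and 99.9, a ratio of 0.514 (0.403 to 0.656). The pair of loci at 1 end of Col26a1 thus had higher ratios than the pair at the other, and the intervals of the strongest locus and of locus 4 do not overlap.

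Of the trafficking and cytoskeleton genes, Hip1 showed the widest range. It encodes an adaptor that links clathrin-coated membrane to actin, and its 4 loci lie inside the gene. Locus 1 (135435502 to 135435801) had values of 147 (EBF1wt) and 55.7 (EBF1E271A), a ratio of 0.379 (0.280 to 0.512). Locus 2 (135451709 to 135452008) had 144 and 63.9, a ratio of 0.444 (0.331 to 0.596). Only 8.85 kb further, locus 3 (135460562 to 135460861) had 98.0 and 116, a ratio of 1.18 (0.881 to 1.60). This is the one member locus with the higher value for EBF1E271A, and its interval holds 1. Locus 4 (135483882 to 135484181), 5.20 kb downstream of an annotated start, was the strongest of the gene with 444 and 365, a ratio of 0.821 (0.711 to 0.951). The loci nearest to the end of Hip1 and those nearest to its annotated starts therefore had intervals that do not overlap.

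Myl10, also named PLRLC, encodes a regulatory light chain of myosin described in lymphocyte precursors, and held the most loci of the 10 genes, 5. Its strongest locus (136641311 to 136641610) lay 47.4 kb outside the gene and within the noncoding RNA gene Gm38722, and had the highest EBF1wt value of all 27 loci. The values there were 626 and 405, a ratio of 0.647 (0.569 to 0.735). Locus 2 (136660655 to 136660954), also within Gm38722, had 142 and 83.5, a ratio of 0.587 (0.445 to 0.776). Locus 3 (136678569 to 136678868), 10.2 kb from the gene, had 104 and 40.5 and the lowest ratio of the gene, 0.388 (0.271 to 0.556). Inside Myl10, 1.98 kb upstream of the nearest annotated start, locus 4 (136691017 to 136691316) had 193 and 179, a ratio of 0.928 (0.748 to 1.16). Locus 5 (136716846 to 136717145), on the other side of the gene, had 201 and 156, a ratio of 0.778 (0.626 to 0.971). Ratios at this gene therefore differed between loci 12.4 kb apart by more than counting error, as the intervals of loci 3 and 4 do not overlap.

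Limk1 encodes a kinase that phosphorylates the actin-severing protein cofilin. Its 1 locus (134678776 to 134679075) lay inside the gene and within the noncoding RNA gene Gm10369, 0.678 kb upstream of an internal annotated start, and is the 1 locus, of the 18 with a window for their gene, within 1 kb of a start of that gene. EBF1wt gave 168 and EBF1E271A gave 131, a ratio of 0.781 (0.615 to 0.997). The interval holds 0.896, the median ratio of all loci, so counting error does not set Limk1 apart from that median. The overlapping region of the same locus gave 0.712. Limk1 is not alone in this: of the 27 member loci, 18 had an interval wholly below 0.896, as had 354 of all 2121 loci. The count of 18 follows in part from the choice of the genes by this ratio. Besides Limk1, the member loci whose interval held 0.896 were locus 1 of Auts2, the Cux1 locus within Gm30408, and loci 3 and 4 of Hip1. Loci 4 and 5 of Myl10, and the strongest locus of Col26a1 with its close neighbour, held it too.

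Castor2, Por and Mettl27 were low at each of their 4 loci. Castor2 encodes a relative of the cytosolic arginine sensor of the mTORC1 pathway. Its 1 locus (134121774 to 134122073), 22.2 kb downstream of the start whose window holds the full EBF1 palindrome, had values of 237 (EBF1wt) and 70.8 (EBF1E271A), a ratio of 0.299 (0.232 to 0.384). Por encodes the reductase that passes electrons to microsomal cytochrome P450 enzymes. Its 1 locus (135672538 to 135672837) lay inside the gene body, 16.46 kb upstream of the annotated start in the promoter table, with 217 and 94.2, a ratio of 0.435 (0.343 to 0.553). Mettl27, a gene of the methyltransferase-like family, held 2 single regions 516 bases apart, 7.09 and 7.61 kb downstream of its start. They had 115 and 50.0 (134939465 to 134939764), a ratio of 0.433 (0.311 to 0.603), and 119 and 58.2 (134939981 to 134940280), a ratio of 0.491 (0.358 to 0.675). These neighbours had overlapping intervals, as did the close pairs of Col26a1 and Cux1.

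**Figure D2:**
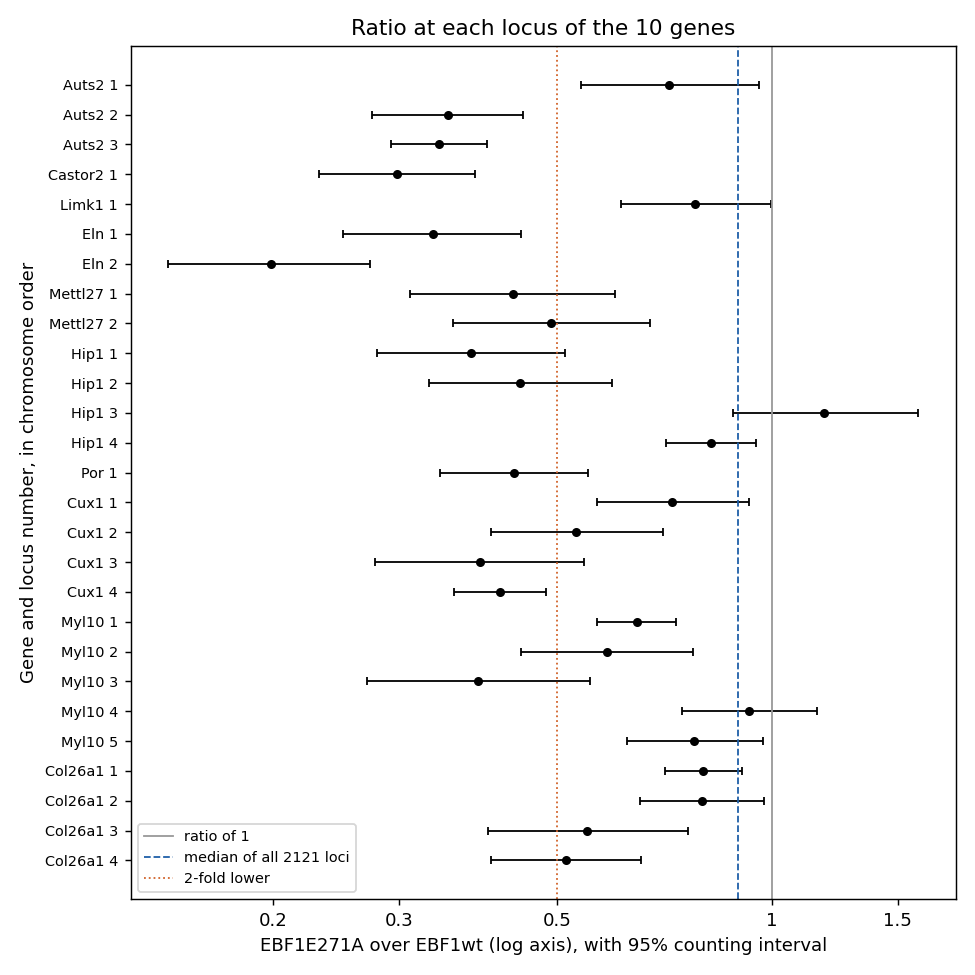
Ratio of EBF1E271A over EBF1wt (log axis) at each of the 27 loci, with exact binomial 95% intervals of counting error and lines at 1, at 2-fold lower and at the median of all 2121 loci (0.896). Eln locus 2 lies lowest at 0.198 and Hip1 locus 3 highest at 1.18, and Auts2, Hip1, Cux1 and Myl10 each hold loci on both sides of the 2-fold line.

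Gene by gene, with the scaled counts of its loci summed, the ratio ran from Eln (0.264) over Castor2 (0.299), Auts2 (0.395), Por (0.435), Mettl27 (0.462) and Cux1 (0.482) to Myl10 (0.682), Hip1 (0.720), Col26a1 (0.729) and Limk1 (0.781). Neighbours in this order had overlapping intervals, except that the interval of Cux1 (0.433 to 0.537) lies below that of Myl10 (0.625 to 0.745). Overlap alone does not show that ratios are equal, and differences between neighbours were not tested. The sums give most weight to the strong loci. In Hip1 and Col26a1 the strongest locus had a high ratio, and the medians over their loci were lower, at log2 ratios of -0.72 and -0.59 against -0.47 and -0.46 from the sums. The order is a description, since these ratios chose the genes.

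Whether a locus lies inside or outside the gene body did not enter the choice by ratio, but the rule asks for a gene within 100 kb. Of the 27 loci, 18 (66.7%) lay inside the gene body, against 54.0% of all loci. The share of all loci also counts loci with no protein-coding gene within 100 kb, so the bases of these shares differ. Gene length, from 10.3 kb for Mettl27 to 1106 kb for Auts2, was not taken into account. The median log2 ratio was -0.98 for the 18 inside loci and -0.90 for the 9 outside loci, so low ratios were found at both. Outside loci ran from 0.334 to 47.4 kb from the gene, and none lay near the limit of 100 kb. Several of the genes held more loci than most genes with a locus: of the 1634 genes with a locus, 17 (1.04%) held at least 4, and 4 of these 17 were Cux1, Hip1, Col26a1 and Myl10. These counts go by nearest gene and include loci outside the gene body, as all 4 of Cux1 are. Of the 27 loci, 1 overlapped a promoter window, against 8.49% of all loci (180). A count of 1 does not set the members apart from that share. No window was used for Auts2, Eln and Col26a1.

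**Figure D3:**
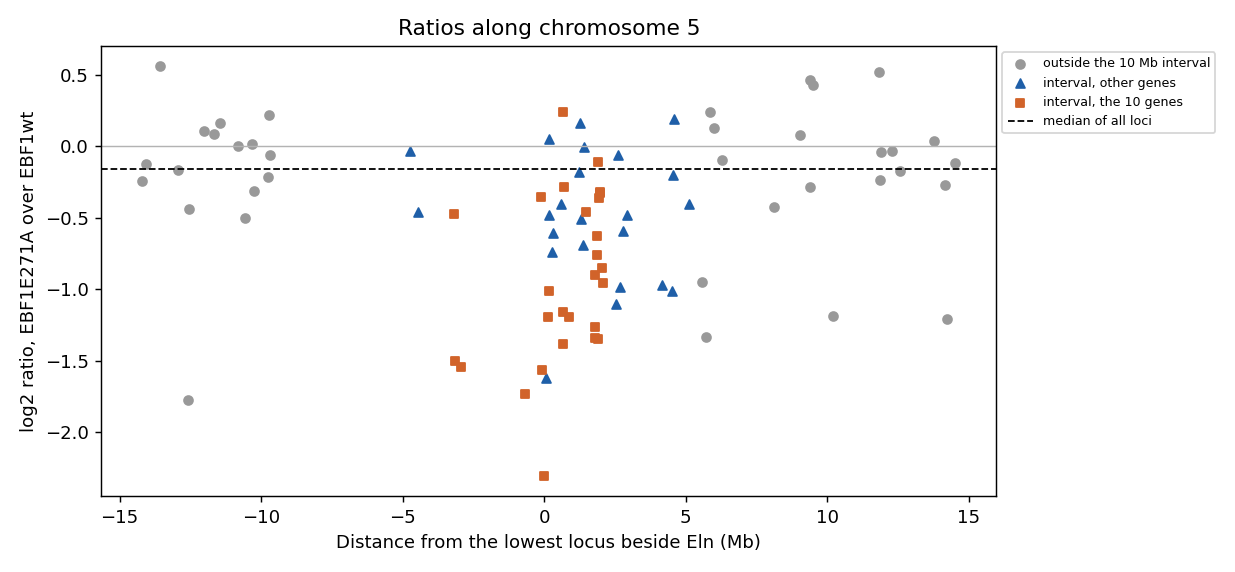
Log2 ratio of EBF1E271A over EBF1wt at loci of chromosome 5, by distance in Mb from the lowest locus beside Eln. Squares are loci of the 10 genes, triangles other loci of the interval, grey circles loci outside it, and the dashed line is the median of all loci (-0.16). Of the loci of the 10 genes, 25 of 27 lie below that line, and of the other loci of the interval 17 of 23.

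The 23 loci of other genes in the interval had a median log2 ratio of -0.48. Of these, 20 had ratios below 1, against 67.2% of all loci, and 3 were at least 2-fold lower, against 4.48%. Those 3 were nearest to Tmem270 (ratio 0.320), Slc12a9 (0.462) and Adap1 (0.493), and the highest of the 23 lay in 3110082I17Rik (1.14). The 10 genes were taken from this interval for their low ratios, so the gap to the other 23 loci is no finding. The ratio was known to be low in the interval as well, so the median and shares of the 23 loci are a description too. Not every low gene was taken: Tmem270, Slc12a9 and Adap1 lay below the member genes Myl10 (0.682), Hip1 (0.720), Col26a1 (0.729) and Limk1 (0.781). So did loci of further genes, among them Stx1a, Orai2 and Mlxipl. A list of 30 genes of the Williams-Beuren segment and its borders held 5 genes with a locus besides the members. Their 6 loci had a median log2 ratio of -0.54, and 1, that of Tmem270, was at least 2-fold lower. The others lay near Cldn4 (0.715 and 1.04), in Stx1a (0.595), in Mlxipl (0.655) and near Nsun5 (0.754). Of 43 further listed genes of the interval, 6 had a locus, with a median of -0.24 and none 2-fold lower. They ran from Orai2 (0.616) to Upk3bl (1.12).

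At the borders of the interval the first loci inside lay near Crcp (0.978) and in Tyw1 (0.726). The last loci inside lay in 3110082I17Rik (1.14) and Elfn1 (0.756). Beyond 140 Mb, low ratios were found in Snx8 (0.513) and Chst12 (0.394), followed by Ttyh3 (1.18) and Gna12 (1.09). Of the 20 loci from 140 to 150 Mb, 3 were at least 2-fold lower. Over the adjoining 10 Mb the median log2 ratio was -0.09 at 16 loci below the interval and -0.11 at 20 loci above it. The 111 loci of chromosome 5 outside the interval had a median of -0.10. Since the interval was known for its low ratio, its contrast with these medians carries no test.

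Relatives and partners of the member genes, from a list of 47 genes that includes 9 members, had few loci of their own. Of the genes that are no members, 4 had 1 locus each, and none was 2-fold lower. Beside Hip1r, the relative of Hip1, EBF1wt gave 721 and EBF1E271A gave 720.4, a ratio of 0.999 (0.896 to 1.12). Near Fbrsl1, a relative of Auts2 that also lies on chromosome 5, they were 234 and 132, a ratio of 0.565 (0.455 to 0.702). In Emid1, a relative of Col26a1, the ratio was 0.796 (0.621 to 1.03), and near Satb1, a homeodomain gene related to Cux1, it was 0.838 (0.695 to 1.01).

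**Figure D4:**
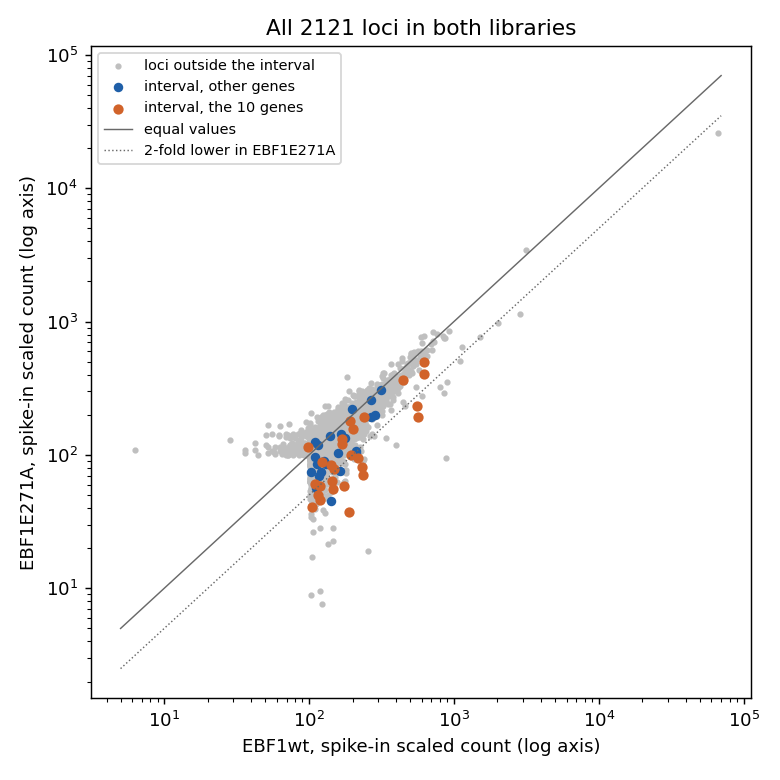
Spike-in scaled counts of EBF1wt and EBF1E271A (both log axes) at all 2121 loci, with loci of the 10 genes and other loci of the interval in colour, a line of equal values and a dotted line at 2-fold lower. The 10 genes have 26 of 27 loci below the line of equal values and 13 at or below the dotted line.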

How the data were processed

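The values used, a signal, are the deposited scaled counts of both ChIP libraries in each region, per the file headers, with human spike-in chromatin as the scale, per the labels. Per the submitters' processing notes, the tools included MACS2 (2.2.7.1), deepTools (3.5.0 and 3.3.2), Bowtie2 (2.3.5.1), bedtools (2.27.0) and SAMtools (1.10), and the mouse build was GRCm38. Their roles, the peak calling and the scale factors are not given in the sources used here. All values are whole multiples of 1 step per library (1.5811 and 0.6325, within 0.001 counts), so division by the step was taken to give unscaled counts, 515897 and 1105818 in sum over the regions, with overlaps counted in each. No source states these factors, and this inference was not checked against reads. All intervals rest on it and treat the factors as free of error.

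Single loci just below 130 Mb are not reported here. Overlapping regions were merged into loci, and a locus is given by its region with the higher mean value. Log2 ratios carry a pseudocount of 1. The bodies of 21900 protein-coding genes were taken from RefSeq (GRCm38.p6), and start sites and sequences from RefSeq promoter windows, with no window used for Auts2, Eln and Col26a1. Exons, introns and input values were not analysed here. Start positions were taken as counted from 0 and are printed counted from 1. The text names every locus of the 10 genes, the other loci at the borders, and listed genes with a locus. Slc12a9 and Adap1 were named after their values were seen. The motif search was also chosen after the values were seen, and the members, gene lists and settings were chosen with earlier results of these data known. The ratio, the rule of size and the intervals were tested on simulated counts with counting error alone and planted changes larger than 2-fold. Spread between cultures and error of the scale factors were not simulated, so neither was tested. Python 3.11.15, numpy 2.4.6, pandas 2.3.3, SciPy 1.17.1 and matplotlib 3.10.9 were used.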

Additional observations from a re-analysis of the deposited data

How the results depend on the processing

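The median log2 ratio of the 27 loci, -0.95, ran from -1.01 to -0.54 over the 7 settings tried, which include equal sums of both libraries (-0.73). The value of -0.54 is that of the 14 stronger loci, whose mean reaches the median mean of all loci. The count of 13 loci at least 2-fold lower became 9 with equal sums, 12 relative to the median of all loci and 18 by a 1.5-fold rule. It was 25 of 51 with every region counted and 5 of 14 among loci whose mean reaches the median mean of all loci. Equal sums shift each log2 ratio by 0.22, which moved the summed log2 ratios beyond their counting intervals for Auts2 (-1.12), Cux1 (-0.83), Myl10 (-0.33), Hip1 (-0.25) and Col26a1 (-0.23). With the median over loci in place of the sums, Hip1 (-0.72) and Col26a1 (-0.59) moved. Equal sums without the region of highest value, and the region with the lower mean value for each locus, were added after seeing the data. Without the region of highest value, equal sums shift each log2 ratio by 0.15, and 12 loci were at least 2-fold lower. With the lower-mean regions 14 loci were. No paired analysis was possible because each group has 1 library. Depth limits the weak loci: unscaled counts at the 27 loci ran from 62 in EBF1wt and from 59 in EBF1E271A.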
